A study of Mus musculus with 36 samples.

Results

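From the 988 genes on a targeted panel for mouse immuno-oncology, 6 were taken by name, and the panel holds other checkpoint genes as well. The 6 are the ligands Cd274 and Lgals9, the receptors Pdcd1, Havcr2 and Lag3, and the enzyme gene Ido1. All 6 have a row in both deposited count tables, 1 for mice given azoxymethane (AOM, a colon carcinogen) and 1 for MC-38 tumours. Their levels were compared across 9 groups of mouse samples, from wild-type C57BL/6 mice and from mice with the Kit W-sash mutation (sash), a strain that lacks most mast cells.

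Colon tumours were taken from wild-type (n = 5) and sash mice (n = 5) aged 32 weeks, 18 weeks after 6 injections of AOM at 10 mg/kg. Preneoplastic lesions of the colon came from wild-type (n = 3) and sash mice (n = 3) aged 14 weeks, which had 3 injections of AOM and a further 3 weeks without. The cromolyn experiment used wild-type mice only, also aged 14 weeks and with tissue labelled as preneoplastic lesion. They received AOM only (n = 3, the same labelled treatment as the wild-type lesions), AOM together with cromolyn for 3 weeks (n = 3), or AOM for 3 weeks and then cromolyn for 3 weeks (n = 3). Cromolyn is a drug that holds back mast cell degranulation. Tumours of MC-38, a single mouse colon carcinoma line, came from wild-type (n = 4) and sash hosts (n = 5) treated with saline, with no age in the labels. All 7 AOM groups had the carcinogen, so none shows the untreated colon. The sash mutation acts on the regulation of Kit, and its effect is not confined to mast cells.

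Checkpoint receptors sit on activated T cells and hold them back when a ligand on a tumour, epithelial or myeloid cell binds. Cd274 encodes PD-L1, which binds PD-1, the product of Pdcd1. Lgals9 encodes galectin-9, a sugar-binding protein for which TIM-3, the product of Havcr2, is one described partner. TIM-3 is also made by dendritic cells and macrophages, and Lag3 encodes a receptor that binds class II molecules. Ido1 encodes indoleamine 2,3-dioxygenase, which opens the tryptophan ring and starves T cells of that amino acid. Interferon-gamma is the classical inducer of both Cd274 and Ido1.

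The 2 ligand promoters are shown because both hold the core of the site bound by interferon regulatory factors (IRF), and the ligand Lgals9 carries the clearest difference below. RefSeq promoter windows (GRCm38.p6) were found for 4 of the 6 genes, Cd274, Lgals9, Pdcd1 and Havcr2. The 250 bases before the start site are printed 5′ to 3′ on the gene's strand, from chr19:29367188-29367437 (plus strand) for Cd274 and chr11:78984925-78985174 (minus strand) for Lgals9, and capitals mark the IRF core.
Cd274: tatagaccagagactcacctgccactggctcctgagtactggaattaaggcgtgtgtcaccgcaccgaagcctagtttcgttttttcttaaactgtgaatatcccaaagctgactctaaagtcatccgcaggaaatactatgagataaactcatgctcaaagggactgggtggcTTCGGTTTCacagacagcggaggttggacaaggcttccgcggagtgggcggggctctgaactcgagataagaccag
Lgals9: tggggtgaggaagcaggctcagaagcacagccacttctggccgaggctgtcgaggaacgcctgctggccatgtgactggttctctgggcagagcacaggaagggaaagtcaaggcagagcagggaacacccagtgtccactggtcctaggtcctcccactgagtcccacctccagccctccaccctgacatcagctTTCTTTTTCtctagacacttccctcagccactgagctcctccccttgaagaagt
The motif searched was GAAANNGAA on both strands (TTCNNTTTC in reverse). It begins 76 bases before the start site in Cd274 and 54 bases before it in Lgals9, whose window holds another match, TTCTGTTTC, 16 bases after the start. Of 32851 promoter windows of the same length, 8.56% held the motif. The windows of Pdcd1 and Havcr2 held no match, which says only that these letters are not there. A match describes the letters and is not evidence of binding.

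Library totals ran from 449880 to 1264354 counts. Totals in the cromolyn experiment (449880 to 544886) were below those of the tumours and lesions (616745 and more). Kit, which the sash mutation affects through its regulation, lay at 114 to 143 CPM (library-size-scaled counts, here with TMM factors) in sash lesions against 334 to 509 CPM in wild-type lesions. The epithelial genes Epcam and Car4 summed to at least 20265 CPM in every AOM library and to 24.3 to 189 CPM in the MC-38 tumours, so those epithelial markers were nearly absent from the tumours labelled colon. The AOM and MC-38 tables were scaled separately, and levels set across them were not tested.

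**Figure D1:**
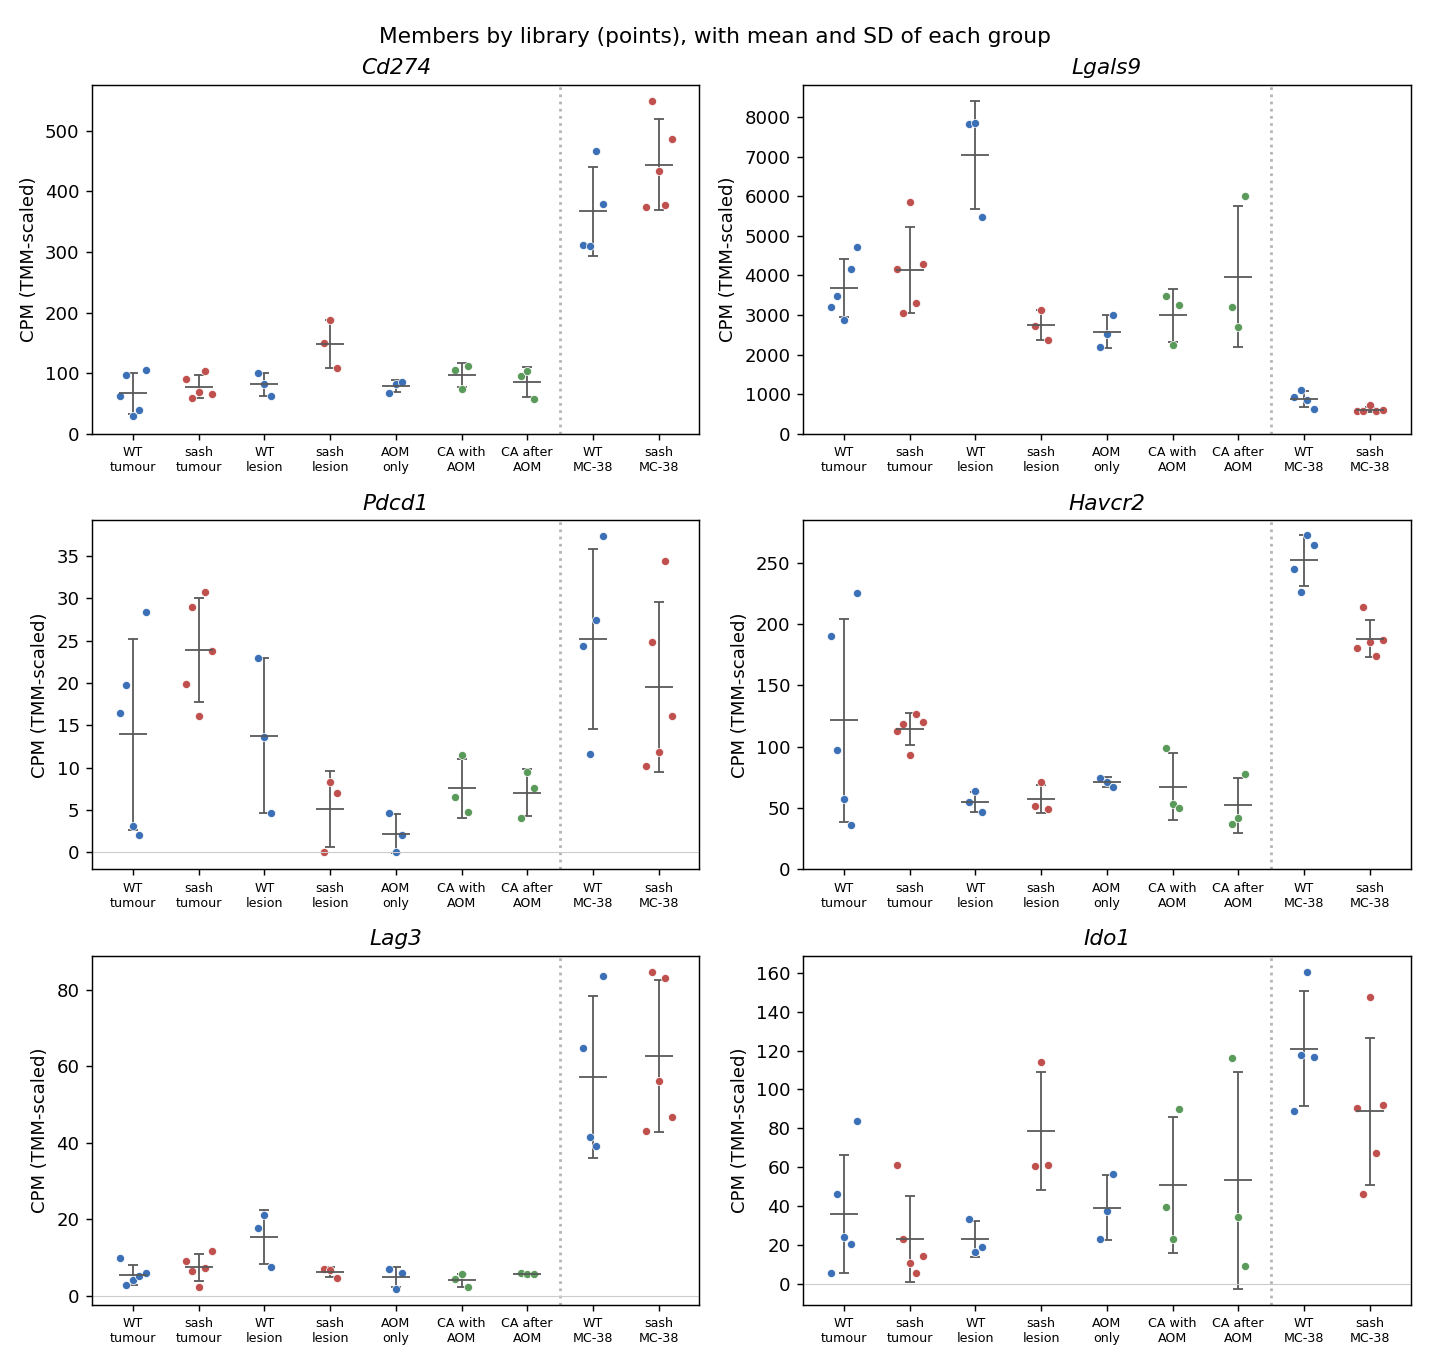
Level of each of the 6 genes in CPM (vertical axis, linear and different for each gene) in every library, with the mean and SD of each of the 9 groups; blue is wild type, red is sash, green is wild type with cromolyn (CA), and the dotted line separates the 2 count tables. Lgals9 in the 3 wild-type lesions lies between 5468 and 7852 CPM, above all 3 sash lesions and all 3 AOM-only libraries.

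Galectin-9 was the one member that passed the test in the preneoplastic lesions, and it was lower in sash mice. Wild-type lesions held 7823, 7852 and 5468 CPM of Lgals9, and sash lesions held 2724, 3135 and 2373 CPM, in order of replicate. All sash lesions lay below all wild-type lesions, and the groups did not overlap. With 3 against 3 libraries the smallest p of an exact permutation test is 0.1. The share of all genes that separated in this way is not given, here or below. The log2 difference was −1.39 (SE 0.22, edgeR adjusted p = 0.0144), or 2.63-fold lower. It was 1 of 4 members tested, while over all genes 22 of 775 passed (2.84%). In bulk tissue, fewer cells of a type and less RNA per cell cannot be told apart. Leaving out sash lesion 2 ended the call, with a difference of −1.48 and adjusted p = 0.0537.

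The wild-type lesions also stood above the AOM-only libraries of the same genotype, age and labelled treatment. Lgals9 was at 2192, 2530 and 3010 CPM in AOM only, below all 3 wild-type lesions and overlapping the sash lesions. The wild-type lesions exceeded AOM only by a log2 difference of 1.41 (SE 0.21, adjusted p = 0.00417), and it passed in all 12 alternatives. There 119 of 762 genes passed (15.6%), and 1 of 4 members. With AOM only in place of the wild-type lesions as control, a comparison chosen after seeing the data, the sash lesions differed in Lgals9 by 0.03 (SE 0.15, adjusted p = 0.912). The comparisons share libraries, so they are not independent. The sum of 5 B cell markers was 563 to 1869 CPM in wild-type lesions. It was 34.2 to 177 CPM in sash lesions and 117 to 311 CPM in AOM only, with none of the 5 at 0 in a whole group. Elsewhere among the AOM groups the sum did not track Lgals9. In cromolyn with AOM it was 371 to 1725 CPM, with a mean Lgals9 of 2991 CPM. In cromolyn after AOM it was 263 to 1523 CPM, with a mean Lgals9 of 3967 CPM. Sash tumours had a sum of 13.7 to 32.4 CPM, with a mean Lgals9 of 4133 CPM. The AOM-only libraries were also shallower (470661 to 544886 counts against 616745 to 1149069). The part of either in the result was not tested.

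In tumours the genotypes did not differ beyond their spread in Lgals9. Wild-type tumours held 3201, 3481, 2870, 4157 and 4705 CPM and sash tumours 4165, 3058, 5845, 3310 and 4285 CPM. The ranges overlapped and the log2 difference was 0.14 (SE 0.20, adjusted p = 0.734). Compared with lesions, Lgals9 was lower in wild-type tumours by 0.98 (SE 0.21, adjusted p = 0.00320), with 5 of 5 tumours below every wild-type lesion. This call held in all 22 alternatives. In sash mice it was higher in tumours by 0.58 (SE 0.22, adjusted p = 0.0418), with 4 of 5 above every sash lesion. This call was lost without any of sash tumours 1, 3 or 5, wild-type lesions 1 or 2, or sash lesions 1, 2 or 3 (adjusted p 0.0512 to 0.147), and with the replicate number as a block (adjusted p = 0.107). Tumours and lesions also differ in age and in the number of injections, and these cannot be told apart.

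The genotype effect on Lgals9 in tumours minus that in lesions was 1.56 (SE 0.31, adjusted p = 0.0611). That was the smallest p of the 848 genes, of which 0 passed by edgeR (0%), with 128 at an unadjusted p below 0.05 and 19 called by DESeq2. The same difference passed with DESeq2 (adjusted p = 0.00153), in a fit of all 25 AOM libraries (adjusted p = 0.0343), and without wild-type tumour 5 (0.0206) or wild-type lesion 3 (0.0299). It uses the wild-type lesions again.

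In the MC-38 tumours Lgals9 was at 937, 1114, 865 and 630 CPM in wild-type hosts and at 566, 578, 739, 582 and 601 CPM in sash hosts. The log2 difference was −0.55 (SE 0.17, adjusted p = 0.127) and did not pass, and 4 of the 5 sash libraries were below the whole wild-type range. DESeq2 put it just past (adjusted p = 0.0497). Over all genes 9 of 714 passed (1.26%), and 0 of the 6 members did. Nor did any member pass in the cromolyn comparisons. There Lgals9 lay at 3490, 2240 and 3244 CPM with cromolyn given with AOM and at 3197, 2699 and 6006 CPM with cromolyn after AOM, against 2192 to 3010 CPM for AOM only. The value of 6006 CPM came from replicate 3, and the difference of cromolyn after AOM from AOM only was 0.60 (SE 0.28, adjusted p = 0.238).

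PD-L1 was higher in sash lesions by mean but did not pass. Wild-type lesions held 101, 81.8 and 62.2 CPM of Cd274, and sash lesions 150, 188 and 108 CPM. All 3 sash libraries lay above all 3 wild-type libraries, with a log2 difference of 0.83 (SE 0.34, adjusted p = 0.226). Pairing the lesions by replicate number gave 0.84 with adjusted p = 0.0883. Against AOM only (67.8, 82.8 and 85.2 CPM) sash lesions were higher by 0.85 (SE 0.27, adjusted p = 0.0468), a comparison chosen after seeing the data, in which 190 of 752 genes passed (25.3%). Wild-type lesions and AOM only had nearly equal means, at 81.6 ± 19.3 and 78.6 ± 9.44 CPM (SD, n = 3 each).

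Cd274 in tumours spread widely and overlapped between genotypes. It ran from 29.4 to 105 CPM in wild-type tumours (62.4, 97.2, 29.4, 39.3 and 105) and from 59.6 to 104 CPM in sash tumours (90.8, 59.6, 69.3, 104 and 65.0). The difference was 0.20 (SE 0.38, adjusted p = 0.798). In sash mice, tumours were below lesions by 0.94 (SE 0.38, adjusted p = 0.0516), with 5 of 5 sash tumours below every sash lesion. This narrow miss passed without wild-type tumour 2, 3, 4 or 5 or sash lesion 3 (adjusted p 0.0347 to 0.0463), of which only the last is a sash library, with DESeq2 (0.0304) and in the fit of all 25 AOM libraries (0.0218). In wild type the same difference was −0.33 (SE 0.39, adjusted p = 0.532).

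The MC-38 libraries held 311, 309, 467 and 379 CPM of Cd274 in wild-type and 374, 549, 433, 377 and 486 CPM in sash hosts. The hosts overlapped, and the difference was 0.26 (SE 0.18, adjusted p = 0.388). With cromolyn given with AOM, Cd274 was 106, 74.7 and 111 CPM, and with cromolyn after AOM 95.7, 103 and 57.1 CPM, both overlapping AOM only. Among the 7 AOM groups the order by mean ran from sash lesions (149 CPM) through cromolyn with AOM (97.2), cromolyn after AOM (85.2), wild-type lesions (81.6), AOM only (78.6) and sash tumours (77.7) to wild-type tumours (66.7). Libraries of each neighbouring pair in that order overlapped.

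PD-1 and LAG-3 had few counts in the AOM libraries. Pdcd1 had 20, 14, 3, 2 and 24 counts in wild-type tumours and 26, 35, 21, 37 and 26 counts in sash tumours. In CPM these were 13.9 ± 11.2 and 23.9 ± 6.10 (SD, n = 5 each). The difference of 0.76 (SE 0.60, adjusted p = 0.513) did not pass, and 2 of the 5 sash tumours were above the whole wild-type range. Over all genes of that comparison 0 of 797 passed (0%), with 159 at an unadjusted p below 0.05 and 81 called by DESeq2, and 0 of 5 members.

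In lesions Pdcd1 did not pass the filter on low counts. It had 13, 9 and 5 counts in wild-type and 0, 6 and 6 counts in sash lesions, a pooled ratio of 0.487 (exact 95% interval 0.225 to 0.994, counting error only). AOM only held 2, 0 and 1 counts, cromolyn with AOM 3, 6 and 2, and cromolyn after AOM 2, 5 and 4. In sash mice the tumours were higher than the lesions by 2.11 (SE 0.85, adjusted p = 0.0512), with 5 of 5 tumours above every lesion. In wild type the difference was 0.02 (SE 0.76, adjusted p = 0.985). The sash difference passed without wild-type tumour 3, 4 or 5 or wild-type lesion 3 (adjusted p 0.0306 to 0.0473), with DESeq2 (0.0229), with library totals (0.0436) and in the fit of all 25 AOM libraries (0.0232). MC-38 tumours held 11.7 to 37.3 CPM in wild-type and 10.3 to 34.3 CPM in sash hosts, and these overlapped (difference −0.32, SE 0.41, adjusted p = 0.662).

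Lag3 had 12, 2, 4, 5 and 5 counts in wild-type tumours and 12, 8, 3, 9 and 13 in sash tumours. It had 10, 14 and 8 counts in wild-type lesions and 4, 5 and 4 in sash lesions, where all 3 sash libraries were below in CPM. The pooled ratio in lesions was 0.445 (exact 95% interval 0.214 to 0.872), and Lag3 failed the filter there. AOM only held 3, 1 and 3 counts, and the pooled ratio of wild-type lesions to it was 2.80 (1.21 to 7.50). Both intervals cover counting error only and not the spread between libraries.

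Between stages in wild type Lag3 fell by 1.43 (SE 0.52, adjusted p = 0.0426), from 15.5 ± 7.10 (SD, n = 3) to 5.59 ± 2.65 CPM (SD, n = 5). There 314 of 848 genes passed (37%), and 2 of 6 members. Lag3 entered this fit of 4 groups partly through wild-type lesions 1 and 2, with 10 and 14 counts. That is the group in which it was highest, so the filter and the fall are not independent. The Lag3 call was lost without wild-type tumours 2, 3, 4 or 5, sash tumours 1, 2 or 4, wild-type lesions 1 or 2, or any sash lesion (adjusted p 0.0511 to 0.186), and with DESeq2 (0.0586), library totals (0.0731) or no filter on low counts (0.0508). In sash mice the difference was 0.26 (SE 0.56, adjusted p = 0.730). Of 10 tested T cell genes 4 fell as well, among them Cd4 (−1.68, SE 0.40), Lck (−1.41, SE 0.37) and Cd8a (−1.87, SE 0.50), and Zap70 rose. In MC-38 tumours Lag3 was at 64.9, 41.4, 39.1 and 83.6 CPM in wild-type and 43.1, 84.7, 56.0, 83.1 and 46.8 CPM in sash hosts (difference 0.14, SE 0.30, adjusted p = 0.809).

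For TIM-3 the difference between the 2 kinds of MC-38 host missed the threshold, although their libraries did not overlap. In that comparison 156 of 714 genes (21.8%) had an unadjusted edgeR p below 0.05. How many of all genes had libraries without overlap is not given, so the separation alone is not read as a result. Havcr2 stood at 245, 227, 272 and 264 CPM in wild-type hosts and at 181, 214, 185, 174 and 187 CPM in sash hosts. All 5 sash libraries were lower than all 4 wild-type ones, with a log2 difference of −0.44 (SE 0.12, adjusted p = 0.0929), and the call was not reached in any of 14 alternatives (adjusted p 0.0621 to 0.282). In wild-type tumours of AOM mice Havcr2 was uneven, at 191, 97.2, 57.7, 36.2 and 226 CPM, while sash tumours lay at 113, 118, 93.1, 127 and 120 CPM. Tumours 3 and 4 of the wild type were low in Havcr2 and in Pdcd1 alike. The genotype difference was −0.11 (SE 0.44, adjusted p = 0.909).

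By mean, Havcr2 was higher in tumours than in lesions in both genotypes, without passing, and the test of the difference between genotypes gave −0.12 (SE 0.65, adjusted p = 0.939). Lesions held 54.8, 63.6 and 47.1 CPM in wild type and 51.9, 70.9 and 49.5 CPM in sash, a genotype difference of 0.03 (SE 0.35, adjusted p = 0.971). The stage difference was 1.10 (SE 0.47, adjusted p = 0.0785) in wild type and 0.98 (SE 0.47, adjusted p = 0.0954) in sash, where 5 of 5 tumours lay above every lesion. Without wild-type tumour 4 both passed (adjusted p = 0.0128 and 0.0393), as the wild-type one did without tumour 3 (0.0460), with DESeq2 (0.0446), with library totals (0.0451) and in the fit of all 25 AOM libraries (0.0415). The macrophage and dendritic cell list (5 genes) lay at 484 to 2005 CPM in wild-type tumours, 1029 to 1393 in sash tumours, 550 to 718 in wild-type lesions and 369 to 883 in sash lesions. Its part in the result was not tested. AOM only held 74.8, 71.5 and 66.9 CPM of Havcr2, cromolyn given with AOM 99.0, 53.6 and 49.7 CPM, and cromolyn after AOM 36.7, 41.9 and 78.1 CPM. Among the 7 AOM groups, only sash tumours and AOM only stood next to each other without overlapping libraries.

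To set the receptors against the number of T cell transcripts, their counts were divided by the summed counts of Cd3d, Cd3e and Cd3g, which encode the T cell receptor's signalling chains. With the counts of each group pooled, sash tumours held 14.5 counts of Pdcd1 per 100 Cd3 counts and wild-type tumours 7.28. Sash lesions held 2.13 and wild-type lesions 3.67. Wild-type tumour 5, at 14.1, lay within the range of the sash tumours (10.9 to 17.3). The log2 ratio was higher in sash than in wild-type tumours by 1.23 (exact permutation test, two-sided p = 0.0317, adjusted p = 0.214). In sash mice the tumours exceeded the lesions by 3.29 in Pdcd1 and by 1.70 in Havcr2, with 5 of 5 tumours above every lesion in each (exact permutation p = 0.0179, the smallest these groups allow, adjusted p = 0.214). Sash lesion 1 had 0 Pdcd1 counts, so the first value rests on an added 0.5 counts. None of 27 such ratios passed after adjustment. Havcr2 is also expressed by dendritic cells and macrophages, so its ratio is not a level per T cell. Their summed list, given above, was higher in every sash tumour than in any sash lesion. By mean the Cd3 genes were lower in sash tumours than in sash lesions, without passing. Cd3e was at 42.2 against 84.3 CPM, Cd3g at 60.9 against 106 and Cd3d at 61.0 against 84.6. The part of these shifts in the ratios was not tested. In MC-38 tumours the pooled counts of Havcr2 stood at 9.89 per 100 Cd3 counts in sash and 15.5 in wild-type hosts. The log2 ratios differed by −0.60 (exact permutation p = 0.0317, adjusted p = 0.214).

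**Figure D2:**
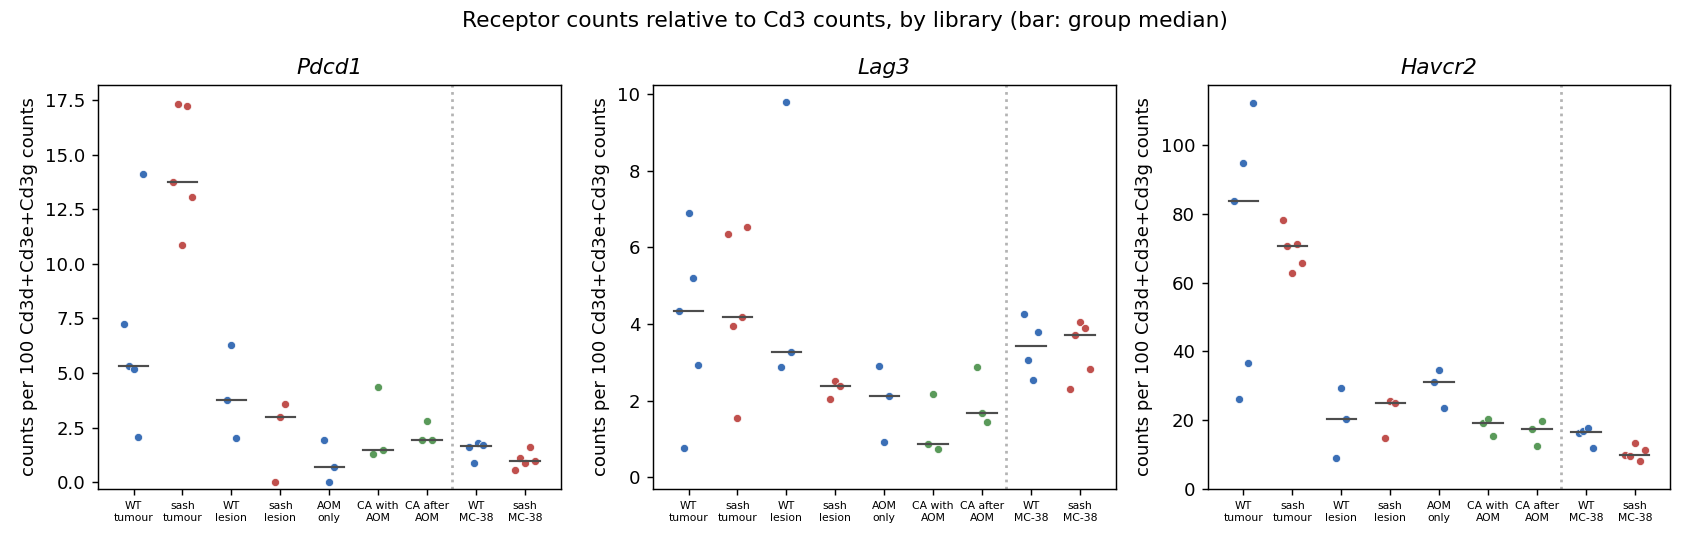
Counts of Pdcd1, Lag3 and Havcr2 per 100 counts of Cd3d, Cd3e and Cd3g (vertical axis, linear) in every library of the 9 groups, coloured as in the plot of levels, with the median of each group as a bar. The 5 sash tumours lie between 10.9 and 17.3 for Pdcd1, above all lesions and all MC-38 tumours. Wild-type tumour 5, at 14.1, lies within that range.

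Ido1 was higher in sash lesions by mean, did not pass in the unpaired test and passed in the paired one. The wild-type lesions had 33.6, 16.7 and 18.8 CPM and the sash lesions 60.9, 114 and 61.3 CPM, with all 3 sash libraries above. The log2 difference was 1.75 (SE 0.45, adjusted p = 0.0790). Pairing by replicate number gave 1.74 with adjusted p = 0.0273, and DESeq2 gave 0.0103. The pairing is inferred from correlations in these same libraries (r 0.142 to 0.503), and no label states it. In the paired fit 84 of 775 genes passed (10.8%) in place of 22, and Lgals9 fell by 1.37 (adjusted p = 0.000225), so 2 of 4 members passed. AOM only had 23.4, 37.6 and 56.8 CPM, below all 3 sash lesions, and the test of that difference missed the threshold (0.93, SE 0.40, adjusted p = 0.110).

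In tumours Ido1 spread widely within each genotype. It was 5.75, 46.5, 24.1, 20.7 and 83.9 CPM in wild-type and 61.0, 23.2, 10.8, 5.81 and 14.6 CPM in sash tumours (difference −0.67, SE 0.74, adjusted p = 0.646). In sash mice the tumours were lower than the lesions by 1.76 (SE 0.72, adjusted p = 0.0550), and this passed without wild-type tumour 1 or 5 or sash tumour 1 (adjusted p 0.00904 to 0.0405), with DESeq2 (0.0326) and in the fit of all 25 AOM libraries (0.0431). Over all genes 403 of 848 passed in that comparison (47.5%), and 1 of 6 members. The cromolyn groups ranged from 23.0 to 90.0 CPM with AOM and from 9.52 to 116 CPM after AOM, and MC-38 tumours from 89.2 to 160 CPM in wild-type and 46.5 to 148 CPM in sash hosts (difference −0.47, SE 0.29, adjusted p = 0.346).

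Ordered by mean, the 7 AOM groups ran differently for each gene. Lgals9 went from wild-type lesions (7048 CPM) through sash tumours (4133), cromolyn after AOM (3967), wild-type tumours (3683), cromolyn with AOM (2991) and sash lesions (2744) to AOM only (2577). Ido1 went from sash lesions (78.7 CPM) through cromolyn after AOM (53.3), cromolyn with AOM (50.9), AOM only (39.3) and wild-type tumours (36.2) to sash tumours (23.1) and wild-type lesions (23.0). Havcr2 was highest by mean in wild-type (121 CPM) and sash tumours (114) and lowest in cromolyn after AOM (52.2). Pdcd1 ran from 23.9 CPM in sash tumours to 2.23 in AOM only, and Lag3 from 15.5 CPM in wild-type lesions to 4.17 in cromolyn with AOM. In each of these orders neighbouring groups had overlapping libraries, save the Havcr2 pair named above. In the separately scaled MC-38 table, Cd274, Lag3, Havcr2 and Ido1 were higher by mean than in any AOM group and Lgals9 lower, without a test. The 10 T cell markers summed to 2223 to 4198 CPM there, against 268 to 1422 CPM over the AOM libraries.

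**Figure D3:**
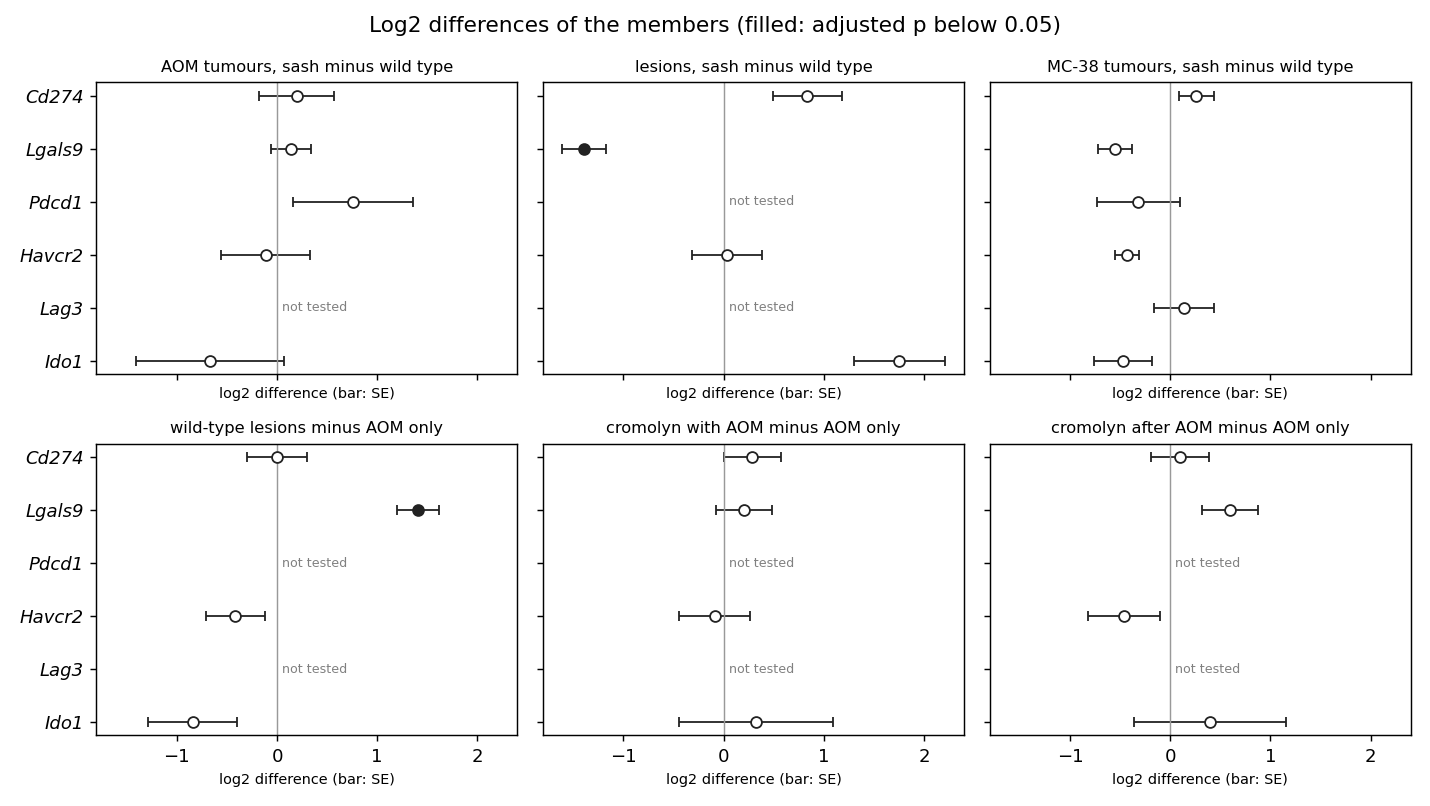
Log2 difference of each gene (horizontal axis, with SE as bars) in 6 comparisons; filled points have an adjusted p below 0.05 and genes that did not pass the low-count filter are marked. Lgals9 at −1.39 in sash against wild-type lesions and at 1.41 in wild-type lesions against AOM only are the filled points.

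Against AOM only, 2 of 768 genes (0.26%) passed for cromolyn given with AOM and 37 of 768 (4.82%) for cromolyn after AOM, with 0 of 4 members in each. Among the interferon-gamma pathway genes counted below, Psmb9 was higher with cromolyn given with AOM (1.03, SE 0.16, adjusted p = 0.0221). With cromolyn after AOM, Socs1 of that list (1.53, SE 0.37, adjusted p = 0.0411) and Nr4a2 of the T cell exhaustion list (1.51, SE 0.29, adjusted p = 0.0258) were higher. Between the 2 cromolyn schedules 0 of 768 genes passed (0%), with 65 at an unadjusted p below 0.05 and 6 called by DESeq2, and again 0 of 4 members. Of the 4 members tested there, Ido1 had the largest SE, with differences of 0.33 (SE 0.77), 0.40 (SE 0.76) and 0.07 (SE 0.75).

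Other genes of the checkpoint and of interferon-gamma signalling are counted here by stage, where 37% of all tested genes passed in wild type and 47.5% in sash mice. In sash mice 8 of 15 tested interferon-gamma pathway genes fell from lesions to tumours and 0 rose (median −1.20, against 0.02 over all genes), beside the 47.5% of all genes that passed in either direction. Among them were Irf1, a transcription factor induced by interferon (−1.80, SE 0.18, adjusted p = 1.01e-05), the receptor chain gene Ifngr1 (−0.86, SE 0.20), the immunoproteasome gene Psmb9 (−1.76, SE 0.41) and Irf8 (−1.32, SE 0.31). Of 5 tested cytotoxic and NK cell genes 4 fell beside them, Nkg7 (−2.66, SE 0.43), Klrd1 (−2.30, SE 0.40), Gzma (−2.20, SE 0.45) and Klrk1 (−1.87, SE 0.49), as did the colonocyte gene Car4 (−5.83, SE 1.06). The other epithelial gene, Epcam, did not fall (0.07, SE 0.16). The summed cytotoxic list (8 genes) lay at 112 to 169 CPM in sash tumours and 262 to 589 CPM in sash lesions, with none of its genes at 0 throughout a group. In wild type 3 of 15 fell, Irf1, Psmb9 and Socs1, and Ifngr2 rose (median −0.71). Of the cytotoxic genes 2 of 5 fell there, Nkg7 (−1.75, SE 0.43) and Klrd1 (−1.27, SE 0.40), as did Car4 (−2.69, SE 0.95), and the summed list lay at 94.1 to 210.0 CPM in tumours and 267 to 424 CPM in lesions. Epcam averaged 23673 CPM in wild-type lesions and 28056 CPM in wild-type tumours. The part of these cell type genes in the interferon-gamma results was not tested. No gene passed the test of the difference between genotypes.

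Among 9 other checkpoint ligands, Vtcn1 and Cd276 rose and Ceacam1 fell from lesions to tumours in wild type. In sash mice 4 rose, among them Vtcn1 (2.63, SE 0.51) and Cd276 (2.37, SE 0.35), and 2 fell, Ceacam1 (−1.46, SE 0.24) and Tnfrsf14 (−1.31, SE 0.30). Vtcn1 and Cd276 encode B7 family proteins, and Ceacam1 is a described partner of TIM-3. Among 8 tested inhibitory receptors, Cd160 and Btla fell in wild type, while in sash mice Ctla4 rose (1.92, SE 0.69, adjusted p = 0.0315) and Cd160 and Cd96 fell. Of 11 tested costimulatory genes 4 rose in wild type (Tnfsf18, Tnfsf9, Tnfrsf9 and Tnfsf4) and 3 fell, and in sash mice 3 rose (Tnfsf9, Tnfrsf9 and Tnfsf18) and Cd27 fell. These counts stand beside the 37% of all genes in wild type and 47.5% in sash mice that passed between stages, and nothing particular to the lists is read from them. Arg1, the arginase gene of the enzyme list, rose by 6.39 (SE 0.71) in wild type and by 7.47 (SE 0.75) in sash. Neutrophil markers rose beside these: Cxcr2 was 0.589 ± 1.02 CPM (SD, n = 3) in wild-type lesions and 83.7 ± 31.8 CPM (n = 5) in wild-type tumours.

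In the lesions no gene of the 6 pathway lists passed between genotypes. The interferon-gamma list had 11 of 14 tested genes above 0 in sash (median 0.21, against 0.05 over all genes), with Gbp2 at 1.09 (SE 0.36, adjusted p = 0.143) and Irf1 at 0.60 (SE 0.18, adjusted p = 0.118). Among the other ligands 4 of 7 tested genes lay above 0, and among the costimulatory genes 1 of 8. The share of all tested genes above 0 is not given, so no shift of a list is read from these counts. In the MC-38 tumours Ciita, the switch of class II genes, rose in sash hosts (0.84, SE 0.17, adjusted p = 0.0422), the only pathway gene that passed. Pdcd1lg2, the gene of the other PD-1 ligand PD-L2, was higher by 1.55 without passing (SE 0.40, adjusted p = 0.0891). Between wild-type lesions and AOM only, Tnfrsf18 (4.30, SE 0.46, adjusted p = 0.000520), Nfatc1 and Nr4a2 rose and Cd28 fell.

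Patterns across libraries were compared after removing each group's mean, as descriptions with no test over the 25 AOM libraries, in which all genes share a library's depth and mix of cells. Ido1 was most like Gbp2 (Pearson r 0.77) and Tap1 (0.70), both genes of the interferon response, and Nt5e (0.70). In the 9 MC-38 libraries the r was 0.82 for Gbp2, 0.72 for Tap1 and −0.58 for Nt5e. Lgals9 was like H2-T24 (0.64) and the antiviral gene Oas3 (0.63), with 0.03 and 0.41 in MC-38. H2-T24 reads can be shared with near-identical class I genes.

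Cd274 was most like the T cell gene Cd3e (0.69), Kynu (0.67) and Nos2 (0.66), with 0.42, 0.45 and 0.47 in MC-38. Havcr2 followed Icos (0.84), Cd86 (0.80) and Apoe (0.79), genes of T cells and of myeloid cells, with 0.24, 0.30 and 0.50 in MC-38. Pdcd1 followed the class II gene H2-Eb1 (0.72), Batf (0.72) and Apoe (0.71), and the MC-38 values were 0.65, 0.86 and 0.70. Lag3 followed Tpsb2 (0.64), Adap2 (0.64) and Rbm3 (0.63), with 0.35, 0.84 and −0.49 in MC-38. Among the members themselves, Pdcd1 and Havcr2 had r 0.61 over the AOM libraries and 0.45 in MC-38, and Cd274 and Havcr2 had 0.48 and 0.90.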

How the data were processed

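RNA of 34 libraries (25 AOM, 9 MC-38) had been amplified with a QIAseq targeted panel, per the labels' protocols. The authors deposited raw counts, whole numbers for each gene that were not normalised. The submitters' processing notes name the genome build mm9 and DESeq2, with no version, and neither the aligner nor the counter is given in the sources used here. Of 36 labelled samples, wild-type MC-38 replicate 2 and sash MC-38 replicate 3 were not analysed here.

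TMM scaling and filterByExpr preceded edgeR's quasi-likelihood test (edgeR 4.0.16, R 4.3.3) with a minimum count of 10 and a minimum total of 15, run over all genes of each comparison, with Benjamini-Hochberg adjustment and a threshold of 0.05. Levels are TMM-scaled CPM. Receptor ratios added 0.5 counts and used exact permutation tests. Alternatives were DESeq2 1.42.0, RLE or library-total scaling, no filter, a replicate block, a fit of all AOM libraries and leaving out each library. A further 2 were chosen after seeing the data: AOM only as control of the lesions, and leaving out wild-type tumours 2 and 4. Genes named were all 6 members, list genes that passed (up to 4 per list, of smallest p, or up to 2 as values), and the 3 genes of most similar pattern. Some genes that this rule names are left out here.

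Same-numbered lesion libraries deviated together (r 0.142 to 0.503), and for 2 of the 3 numbers the best match was the same number. The labels name no shared litter or day. The paired fits of the lesions therefore rest on a pairing inferred from these data. The 6 members and the gene lists were chosen with earlier results of these data known. The labels do not say that samples came from separate mice, so p-values measure only the spread between samples, which may be technical. The fitting scripts were tested on simulated data.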

Additional observations from a re-analysis of the deposited data

Results flagged for a closer look

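Of 24 gene-and-group sets large enough to check, 1 held a library far from the others. Lgals9 in sash MC-38 replicate 4 reached 738.753 CPM, while the other 4 sash MC-38 tumours lay between 566 and 601 CPM. Chance alone flags about 1 such set in 20.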

How the results depend on the processing

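Lgals9 kept its call in wild-type tumours against lesions in all 22 alternatives and in wild-type lesions against AOM only in all 12. Numbers of genes called were less steady. With DESeq2 they were 81 in the tumours, 72 in the lesions, 42 and 56 for cromolyn with and after AOM, 6 between the schedules, 48 in MC-38 and 19 for the difference of genotype effects. DESeq2 called 2 members in the lesions, 1 in MC-38, 4 in sash stages and 1 in the difference of genotype effects. Library totals called 2, 18 and 3 genes in the tumours, for cromolyn with AOM and between schedules, and 2 members in sash stages. No filter on low counts gave 36 genes in the lesions and 1 member in wild-type stages. A fit of all 25 AOM libraries called 88 genes in the tumours, 0 in each cromolyn schedule against AOM only, and 4 in the difference of genotype effects with 1 member, and 4 members in sash stages. Of the alternatives chosen after seeing the data, AOM only as control of the lesions called 190 genes, with Lgals9 at 0.026 and Havcr2 at −0.37, and leaving out wild-type tumours 2 and 4 called 6 in the tumours. With the replicate number as a block, 84 genes and 2 members passed in the lesions, 7 and 21 genes for cromolyn with and after AOM, 3 genes in MC-38 and 0 members in sash stages. Outside the lesions same-numbered libraries did not all deviate together, and the labels state no pairing in any comparison. The block turned Havcr2 in the tumours (0.17) and in the difference of genotype effects (0.11), Lag3 in MC-38 (−0.031) and sash stages (−0.032), and Pdcd1 in wild-type stages (−0.23). Cd274 between wild-type lesions and AOM only, near 0, turned to 0.027 with DESeq2, 0.0296 with RLE and 0.0036 in the fit of all 25 libraries. With 5 counts added, Lag3 over Cd3 turned to −0.0044 in the tumours and 0.0086 in wild-type stages.

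Leaving out single libraries gave 0 to 17 genes called in the tumours (most without sash tumour 1), 0 to 68 in the lesions (none without sash lesion 2) with 0 to 1 members, 0 to 18 and 1 to 41 for cromolyn with and after AOM (fewest without AOM only 2), 0 to 3 between schedules, 3 to 17 in MC-38, 183 to 367 in wild-type stages with 1 to 2 members, 0 to 4 members in sash stages, 0 to 10 genes and 0 to 1 members for the difference of genotype effects, and 11 to 268 between wild-type lesions and AOM only (fewest without AOM only 1). Uncalled log2 differences changed sign over the ranges that follow. In the tumours these were −0.013 to 0.40 for Cd274, −0.0083 to 0.24 for Lgals9 and −0.35 to 0.21 for Havcr2. Havcr2 ran from −0.13 to 0.20 in the lesions and −0.38 to 0.23 for the difference of genotype effects, Lag3 from −0.013 to 0.38 in MC-38, Pdcd1 from −0.41 to 0.63 in wild-type stages, and Cd274 from −0.19 to 0.17 between wild-type lesions and AOM only. For cromolyn with AOM they were −0.47 to 0.12 for Havcr2 and −0.32 to 0.68 for Ido1, for cromolyn after AOM −0.053 to 0.35 for Cd274 and −0.86 to 0.93 for Ido1, and between schedules −0.36 to 0.038 for Cd274, −0.020 to 0.60 for Lgals9, −0.78 to 0.0034 for Havcr2 and −1.18 to 0.75 for Ido1. Over Cd3, Lag3 ran from −0.22 to 0.58 in the tumours, −0.72 to 0.15 in wild-type stages, −0.38 to 0.28 for cromolyn after AOM and −0.16 to 0.10 in MC-38, Havcr2 from −0.12 to 0.40 in the tumours, −0.21 to 0.65 in the lesions and −0.30 to 0.031 between schedules, and Pdcd1 from −0.21 to 0.62 between schedules. The cause of these changes was not tested. Pdcd1 and Lag3 had at most 37 counts in any AOM library, which limits their precision.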
